A study of Mus musculus with 11 samples.

Results

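The genes described here carry salt, magnesium and calcium across the distal nephron. They were the 10 genes whose symbols in the count tables are Slc12a3, Wnk1, Wnk4, Klhl3, Trpm6, Pvalb, Calb1, S100g, Trpv5 and Slc8a1, of 28692 genes counted, and each was followed through tubular segments named from other genes. All libraries came from adult kidney, and the study's methods give male C57Bl/6 mice of 10 weeks. In unilateral ischemia-reperfusion (UIR), the left renal pedicle was clamped for 30 min at 37 °C. In unilateral ureteral obstruction (UUO), the left ureter was tied off for good. Left kidneys of both models were taken on day 28, and the controls were uninjured mice matched to them in strain, sex and age. No transgene or deletion was used, and the kidneys were taken apart with a protease active in the cold. There were 5 control libraries (labelled Ctrl, N1, N2, AN1 and AN2), 3 UIR libraries and 3 UUO libraries of 10x 3' single-cell RNA.

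The distal convoluted tubule (DCT) takes up sodium chloride through Slc12a3, the cotransporter that thiazide diuretics block. The kinases Wnk1 and Wnk4 act through a further kinase to switch that cotransporter on, and Klhl3 brings these kinases to the ubiquitin ligase that marks them for breakdown. The DCT also takes up magnesium from the lumen through the channel Trpm6, and its early part holds the calcium buffer parvalbumin (Pvalb). Calcium enters the late DCT and the connecting tubule (CNT) through the channel Trpv5, is carried through the cell by calbindin-D28k (Calb1) and calbindin-D9k (S100g), and leaves to the blood side in exchange for sodium through Slc8a1. The thick ascending limb (TAL), upstream of the DCT, takes up salt through another cotransporter, and the collecting duct downstream holds principal and intercalated cells.

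On the GRCm38 genome, Slc12a3 (ENSMUSG00000031766) lies on chromosome 8 from 94329201 to 94366214 on the plus strand. Of its regulators, Wnk1 lies on chromosome 6 from 119923969 to 120038672 on the minus strand, Wnk4 on chromosome 11 from 101260567 to 101277409 on the plus strand, and Klhl3 on chromosome 13 from 58000228 to 58113592 on the minus strand. The magnesium channel gene Trpm6 spans chromosome 19 from 18749983 to 18892511 on the plus strand, and Pvalb spans chromosome 15 from 78191114 to 78206400 on the minus strand. Of the calcium genes, Trpv5 lies on chromosome 6 from 41652173 to 41680769 (minus), Calb1 on chromosome 4 from 15881264 to 15908064 (plus), S100g on chromosome X from 162961992 to 162964599 (minus) and Slc8a1 on chromosome 17 from 81373105 to 81738377 (minus). The annotation (GENCODE vM21) places a microRNA gene inside Wnk1 and inside Klhl3 on the same strand, and no other gene overlapped a member on its own strand. Wnk1 has a short kidney form that starts at an inner promoter, and 3' UMI counts cannot tell it from the full form.

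Promoters from RefSeq (GRCm38.p6) were matched for 9 of the 10 genes. Those of Slc12a3, Trpm6, S100g and Trpv5 are shown because these genes moved in different ways below, each from 250 bases before the start to 30 bases after it, 5′ to 3′ on the gene's strand. They lie at chr8:94328958-94329237 (plus), chr19:18749480-18749759 (plus), chrX:162964570-162964849 (minus) and chr6:41680694-41680973 (minus). Capitals mark 6-base strings found on either strand.
Slc12a3: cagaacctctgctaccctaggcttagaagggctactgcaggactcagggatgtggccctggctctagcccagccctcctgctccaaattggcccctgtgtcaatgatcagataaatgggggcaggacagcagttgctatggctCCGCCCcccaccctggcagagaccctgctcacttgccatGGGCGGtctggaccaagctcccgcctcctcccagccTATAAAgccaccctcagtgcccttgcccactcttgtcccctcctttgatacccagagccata
Trpm6: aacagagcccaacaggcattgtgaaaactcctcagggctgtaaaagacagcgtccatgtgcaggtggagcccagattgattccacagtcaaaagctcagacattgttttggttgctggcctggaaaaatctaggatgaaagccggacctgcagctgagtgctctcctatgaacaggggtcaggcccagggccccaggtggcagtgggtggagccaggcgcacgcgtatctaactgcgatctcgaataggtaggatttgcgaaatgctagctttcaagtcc
S100g: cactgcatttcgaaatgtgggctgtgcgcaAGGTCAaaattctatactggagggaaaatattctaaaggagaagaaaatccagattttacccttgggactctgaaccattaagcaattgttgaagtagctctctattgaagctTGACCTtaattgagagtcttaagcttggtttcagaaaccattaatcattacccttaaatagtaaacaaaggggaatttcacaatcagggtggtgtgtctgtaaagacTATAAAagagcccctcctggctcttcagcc
Trpv5: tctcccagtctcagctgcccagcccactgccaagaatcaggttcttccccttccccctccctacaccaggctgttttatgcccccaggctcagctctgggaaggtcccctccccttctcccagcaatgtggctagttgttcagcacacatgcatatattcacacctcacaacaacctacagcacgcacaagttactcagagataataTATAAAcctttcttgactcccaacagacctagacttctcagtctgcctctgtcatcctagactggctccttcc
The 5 strings searched were GTTAAT (an HNF1 site, in 7.10% of 32851 promoters in the table), AGGTCA (a nuclear receptor site, 16.3%), TGTTCT (a steroid receptor site, 19.0%), GGGCGG (an SP1 box, 35.7%) and TATAAA (the TATA box, 13.6%). In the Slc12a3 promoter the SP1 box or its complement began at -107 and -68 and the TATA box at -32, and in the Trpv5 promoter the TATA box began at -43. The S100g promoter held the nuclear receptor string or its complement at -220 and -107 and the TATA box at 1, the start itself. None of the 5 strings was in the Trpm6 window. In promoters not printed here, Wnk1 held the SP1 box or its complement 5 times and Wnk4 3 times. These are matches of letters and no test of binding.

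The 11 libraries held between 49503312 and 117043590 UMIs, and 40594 cells were kept after filters, with 210 barcodes found in more than 1 library. Of the barcodes called as cells, 56.7% to 78.8% in control, 23.9% to 37.2% in UIR and 3.17% to 8.01% in UUO libraries had over 30% mitochondrial UMIs and were left out, so the kept control cells are the smaller part of those called. Segments were named from markers that include none of the 10 genes, and these genes took no part in clustering. This gave 205 control, 220 UIR and 65 UUO cells that were DCT-like (Sgms2, Abca13, Emx1, Sall3, Tmem52b and Slc16a7), and 81, 115 and 9 that were CNT-like (Klk1, Slc2a9, Scnn1b, Scnn1g and Hsd11b2). A further 72, 7 and 0 cells carried both sets and stayed mixed. All 6 DCT markers were detected in the DCT-like pools of each group, summing to 4248, 3783 and 3176 CPM (UMIs in 1e6 of the pool's UMIs) on average in control, UIR and UUO. Tmem52b was the largest part of each sum and was higher in the injured kidneys (1885, 2788 and 2512 CPM), and it stood at 2857 CPM in control CNT-like cells. The other 5 markers had lower means in the injured DCT-like pools: Abca13 stood at 1113, 465 and 266 CPM, Slc16a7 at 468, 145 and 117 CPM, Sgms2 at 364, 112 and 82.5 CPM, Emx1 at 269, 187 and 137 CPM and Sall3 at 151, 85.6 and 61.3 CPM. The segment markers were thus lower beside the genes described here, and their part in the results was not tested. The CNT markers in the same pools summed to 1801 CPM in control, 8986 in UIR and 5198 in UUO, so the DCT-like cells of the injured kidneys also carried CNT markers. In CNT-like cells the CNT markers summed to 14515 CPM in control and 15781 in UIR and the DCT markers to 3268 and 2966, so the CNT markers separated these classes more than the DCT markers did.

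Different clusters held the DCT-like cells of the control and the injured kidneys. A cluster led by Abca13 and Egf held 150 control, 19 UIR and 6 UUO cells, and one of shallower cells led by Pgam2 and Wfdc15b held 55, 8 and 2. A cluster led by Tmem52b and Klk1 held 0 control, 193 UIR and 57 UUO cells, and took the DCT name narrowly, with a DCT marker score of 0.55 where 0.5 was required. For this reason the changes of the 10 genes are also given in DCT-like, CNT-like and mixed cells pooled (358, 342 and 74 cells), which does not depend on where the border between DCT-like and CNT-like cells is drawn but keeps its borders with principal-cell-like and unnamed cells. Beside these changes, the 5 markers of injured epithelium (Vcam1, Cp, Dcdc2a, Sema5a and Havcr1) summed to 30.8 to 52.4 CPM in control, 283 to 443 in UIR and 273 to 558 in UUO DCT-like pools, with Vcam1 and Havcr1 at 0 in control. The 4 macrophage markers summed to 0 to 6.78, 28.1 to 42.4 and 21.2 to 66.3 CPM. The cells' median mitochondrial share was 17.5%, 13.4% and 13.4%. The part of these in the results was not tested.

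In control kidneys Slc12a3 was highest in DCT-like cells at 4025 ± 852 CPM (SD, n = 5 libraries), followed by the mixed cells at 1969 ± 509 CPM (n = 4), and the libraries of these classes did not overlap. All other segments lay between 4.36 and 46.9 CPM on average and overlapped each other. Trpm6 followed the same order, with 188 ± 71.7 CPM in DCT-like and 110 ± 30.4 in mixed cells, whose libraries overlapped, against 7.99 ± 7.27 CPM in CNT-like cells. Pvalb was nearly confined to DCT-like cells, which held 89.2% of its 1955 UMIs in control kidneys. S100g stood at 28621 CPM in CNT-like and 876 in DCT-like cells, and Trpv5 at 130 CPM in CNT-like and 1.84 in DCT-like cells. Of the control UMIs of Trpv5, 45.6% lay in CNT-like, 25.4% in mixed and 1.41% in DCT-like cells. Wnk1 reached 3684 ± 1522 CPM in mixed, 3140 ± 151 in DCT-like and 843 ± 218 in TAL-like cells, and Wnk4 was the most evenly spread of the regulators, with 483 CPM in DCT-like, 277 in TAL-like and 234 in CNT-like cells. These levels describe clusters of the same cells, and no test was made between segments.

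**Figure D1:**
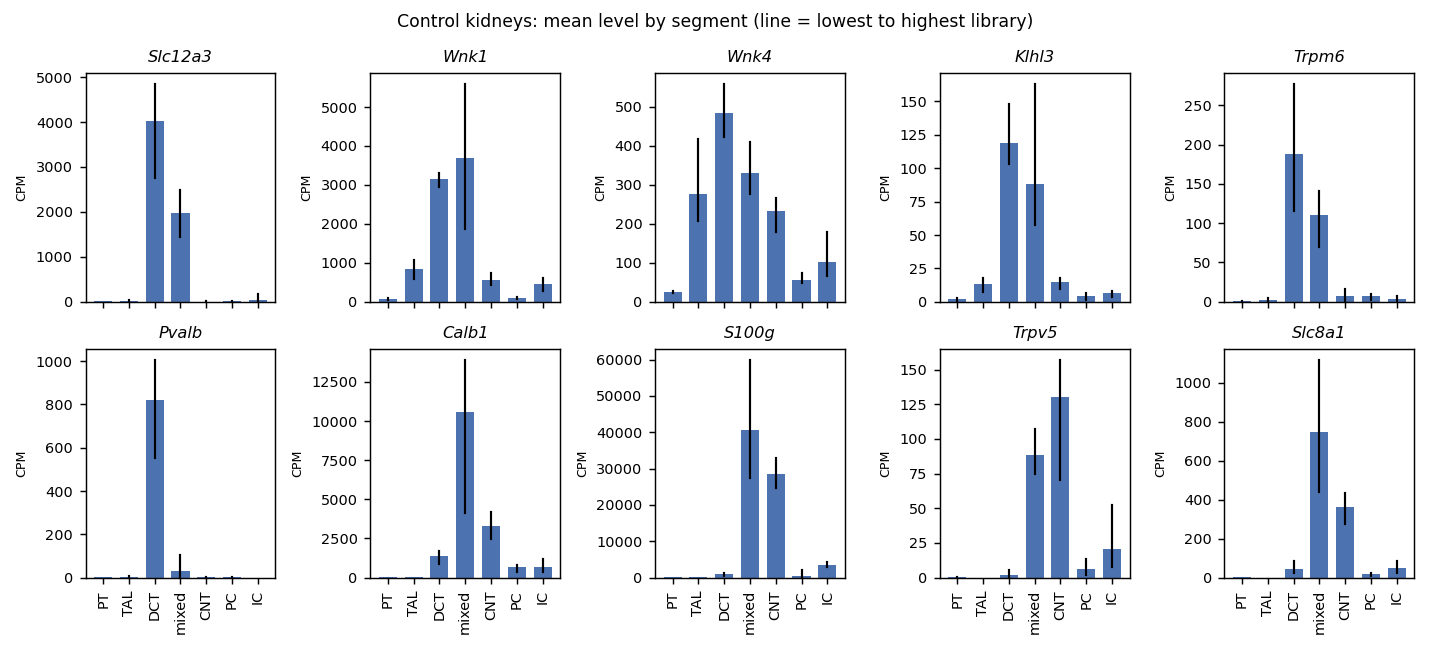
Mean level of each gene in CPM (bars) by segment in control libraries, with a line from the lowest to the highest library and a separate linear axis for each gene. Slc12a3, Trpm6 and Pvalb peak in DCT-like cells, whereas Calb1, S100g, Trpv5 and Slc8a1 peak in CNT-like or mixed cells.

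Single cells with and without a UMI of the cotransporter were compared in control kidneys. After each cell was thinned to 1000 UMIs, Pvalb was seen in 84 of 216 pooled distal control cells with a Slc12a3 UMI (38.9%, 95% exact interval 32.3 to 45.7) and in 10 of 142 without one (7.04%, 3.43 to 12.6). S100g was seen in 31.5% of the cells with Slc12a3 (25.3 to 38.1) and in 84.5% of those without (77.5 to 90.0). At the same depth S100g was seen in 13.6% of control macrophages (7.23 to 24.2 over 5 libraries) and in 10.8% of endothelial cells, which should lack it. All 15 control cells with a Trpv5 UMI also had a S100g UMI, and 3 of them had a Slc12a3 UMI. These intervals cover counting error only, and the cells come from 5 libraries.

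In UIR kidneys 8 of the 10 genes changed in DCT-like cells, 7 lower and 1 higher, where 35.1% of 6407 genes tested changed in either direction and 18.3% were lower. In UUO kidneys the count was again 7 lower and 1 higher, where 32.9% of genes changed and 16.7% were lower. The labels name no animal for each library, while the study's methods give 3 mice per model for 10x sequencing and 5 control mice. The p-values here measure the spread between libraries, which may be technical in part. Control, UIR and UUO libraries share no labelled set, so a batch and the injury cannot be told apart. A gene counts as changed at an adjusted p under 0.05 in edgeR's quasi-likelihood test on UMIs summed per library, and both comparisons share the control libraries. All 10 genes passed the filter on low counts. Trpv5, the 1 higher gene, had 5 UMIs in all control DCT-like cells and passed only through the injured libraries. Its higher level is not read as a result. The median log2 fold change of the 10 was -1.51 in UIR and -1.92 in UUO, beside 0.04 and 0.04 over all genes tested. With libraries scaled by total UMIs in place of the trimmed mean of M-values, the median over all genes moved up by 0.30 in both comparisons, and the share of changed genes that were lower went from 52.1% to 25.3% in UIR and from 50.9% to 26.4% in UUO. The counts among the 10 genes were 8 and 8 under that scaling too.

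**Figure D2:**
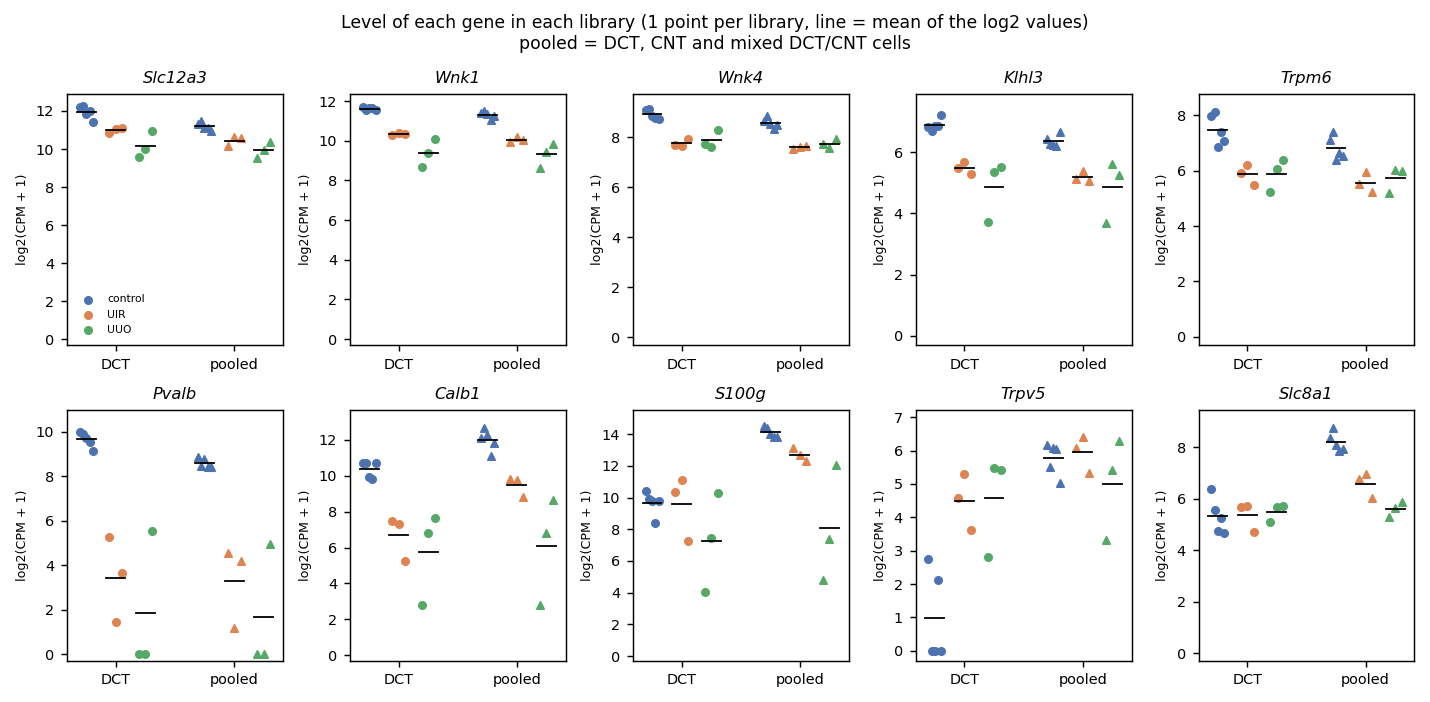
Level of each gene as log2(CPM + 1) in DCT-like cells (circles) and in the pooled distal class (triangles), 1 point for each library and a line at the mean of each group. The control points of Slc12a3, Wnk1, Wnk4, Klhl3, Trpm6, Pvalb and Calb1 stand above all UIR and UUO points in both classes, while S100g overlaps between groups in DCT-like cells.

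Of the thiazide-sensitive pathway, Slc12a3 stood at 4743, 4843, 3722, 4067 and 2749 CPM in DCT-like cells of the control libraries, at 1851, 2113 and 2164 CPM in UIR and at 755, 1025 and 1968 CPM in UUO. The injured libraries were all below the lowest control library. Slc12a3 fell by a log2 fold change of -1.27 ± 0.24 in UIR (SE, 2.41-fold lower, edgeR adjusted p = 4.88e-05) and of -1.95 ± 0.25 in UUO (3.87-fold lower, adjusted p = 9.78e-08). In the pooled distal class the fall was -1.05 ± 0.18 in UIR and -1.53 ± 0.19 in UUO. With a mitochondrial limit of 50% the changes in DCT-like cells of UIR were 0.11 ± 0.13 for Slc12a3, 0.10 ± 0.12 for Wnk4 and 0.18 ± 0.19 for Calb1, none past the threshold.

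The kinase gene Wnk1 had control levels of 3299, 3008, 3242, 3199 and 2953 CPM, within a narrow range, against 1267, 1328 and 1288 CPM in UIR and 403, 670 and 1082 CPM in UUO. It changed by -1.57 ± 0.22 and -2.40 ± 0.23 on the log2 scale (adjusted p = 3.77e-07 and 3.93e-10). Wnk4 fell to a like degree in both models, from 547, 558, 454, 430 and 423 CPM in control to 207, 197 and 239 in UIR and 212, 192 and 307 in UUO (-1.46 ± 0.17 and -1.30 ± 0.19). Klhl3, which takes part in the removal of these kinases, fell as well: its control levels were 113, 103, 116, 115 and 148 CPM, and its injured levels 43.6, 50.2 and 38.0 CPM in UIR and 12.1, 39.8 and 44.8 CPM in UUO (-1.72 ± 0.20 and -2.21 ± 0.28). The transcripts of the transporter, both kinase genes and the adaptor were therefore each lower in all 6 injured libraries than in any control library. The short and full forms of Wnk1 are not told apart in these counts.

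The magnesium channel Trpm6 and the calcium buffer Pvalb, both of the DCT, fell. Trpm6 stood at 251, 277, 116, 166 and 133 CPM in control, 59.8, 73.6 and 44.3 in UIR and 36.4, 66.3 and 82.7 in UUO, a log2 fold change of -1.90 ± 0.23 in UIR and -1.88 ± 0.29 in UUO (adjusted p = 4.84e-08 and 3.48e-06). Pvalb fell the most of the 10 genes, from 1006, 957, 850, 739 and 552 CPM to 36.9, 1.73 and 11.4 CPM in UIR and to 0, 0 and 44.8 CPM in UUO. Its log2 fold change was -5.78 ± 0.42 in UIR (adjusted p = 1.31e-12) and -6.11 ± 0.52 in UUO (adjusted p = 3.54e-11). In UIR kidneys the loss was not seen in every cell: the 10 DCT-like cells of 1 UIR library that fell in the Abca13- and Egf-led cluster had Pvalb at 313 CPM and Slc12a3 at 4661 CPM, whereas the 193 UIR cells of the Tmem52b- and Klk1-led cluster had Pvalb at 0.453 ± 0.785 CPM and Slc12a3 at 1788 ± 211 CPM (SD, n = 3). Control cells of the first of these clusters had Slc12a3 at 4407 ± 855 CPM and Pvalb at 807 ± 222 CPM (n = 5). Those 10 cells are a description of 1 library.

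Of the calcium genes in DCT-like cells, Calb1 fell from 1697, 1680, 983, 885 and 1665 CPM to 179, 157 and 36.7 CPM in UIR (-3.72 ± 0.40, adjusted p = 4.55e-09) and to 6.06, 113 and 196 CPM in UUO (-4.01 ± 0.45, adjusted p = 9.56e-09). S100g did not pass the test in either model. Its control levels of 1345, 943, 870, 339 and 880 CPM overlapped with 1333, 2199 and 153 CPM in UIR and with 15.2, 172 and 1224 CPM in UUO, and 4 of the 5 control levels also lay in the range of the droplets without cells, where S100g made up 529 to 4205 CPM in control libraries. Slc8a1 did not pass either, with log2 fold changes of -0.34 ± 0.29 and -0.33 ± 0.37. Trpv5 was the 1 gene with a higher level, from 5.79, 0, 0, 3.39 and 0 CPM to 22.9, 38.1 and 11.4 CPM in UIR (3.05 ± 0.66, adjusted p = 0.000348) and 6.06, 43.1 and 41.4 CPM in UUO (3.28 ± 0.76, adjusted p = 0.000937). Its control levels were at those of the droplets without cells, 1.07 to 8.39 CPM. With 5 UMIs in all control DCT-like cells, it passed the filter only through the injured libraries. The sizes depend on the prior count, and the rise is not read as a result. The rise of Trpv5 was absent when each cell was named from the markers of itself and its nearest neighbours in UIR (-0.20 ± 0.36) and in the pooled class (-0.10 ± 0.26 in UIR and -0.65 ± 0.37 in UUO), and the CNT markers rose in the same pools as given above.

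In the pooled distal class 8 of the 10 genes were lower in UIR, where 26.7% of genes changed and 14.1% were lower, and 9 of 10 in UUO, where 24.5% changed and 12.6% were lower. None was higher. The log2 fold changes in UIR and UUO were -1.56 ± 0.20 and -2.24 ± 0.21 for Wnk1, -1.28 ± 0.14 and -1.14 ± 0.16 for Wnk4 and -1.47 ± 0.18 and -1.65 ± 0.26 for Klhl3. They were -1.55 ± 0.20 and -1.40 ± 0.27 for Trpm6, -5.05 ± 0.34 and -5.32 ± 0.47 for Pvalb and -2.83 ± 0.45 and -4.87 ± 0.52 for Calb1. By total-UMI scaling the share of changed genes that were lower went from 52.7% to 21.4% in UIR and from 51.3% to 21.4% in UUO, and the median gene moved by 0.28 and 0.32. Under it 8 and 9 of the 10 genes changed, and the value of Trpv5 in UIR turned to 0.18. Here Slc8a1 fell as well, from 331, 429, 270, 233 and 243 CPM to 109, 123 and 64.4 CPM in UIR (-1.86 ± 0.20, adjusted p = 3.09e-08) and 38.5, 48.3 and 58.0 CPM in UUO (-2.94 ± 0.27, adjusted p = 4.24e-09). S100g fell from 23170, 21481, 16226, 14676 and 14711 CPM to 26.7, 168 and 4334 CPM in UUO (-3.83 ± 0.74, adjusted p = 0.000238), while in UIR, at 9048, 6700 and 5054 CPM, it lay below every control library and missed the threshold (-1.66 ± 0.65, adjusted p = 0.0598). Trpv5 alone passed in neither model. The pooled class mixes cells in other shares in each group, since CNT-like and mixed cells, which hold most S100g and Slc8a1, were 153 of its 358 cells in control, 122 of 342 in UIR and 9 of 74 in UUO.

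The DCT-like result in UIR depended on which cells took the name. With a mitochondrial limit of 50%, 144 UIR cells were DCT-like and 2 of the 10 genes changed, with Slc12a3, Wnk4 and Calb1 no longer lower. With predicted doublets kept, 24 UIR cells over all libraries were DCT-like, and with cells of at least 1000 UMIs 28 were, and in both settings 1 UIR library alone reached 10 cells, so their values decide nothing on UIR. The same 3 settings left no UUO library with 10 DCT-like cells, and naming each cell from the markers of itself and its nearest neighbours left 1. In UIR, with 3 libraries, that naming kept the 7 falls, with Slc12a3 at -1.07, and S100g (-3.76) and Slc8a1 (-2.88) fell too. In the pooled class, the 8 genes that fell in UIR kept their direction under each of the 28 alternatives run, and each stayed past the threshold in all of them except Calb1, which missed it in 1: Slc12a3 ranged from -1.50 to -0.74, Wnk1 from -2.11 to -1.18, Trpm6 from -1.86 to -1.26 and Pvalb from -9.97 to -3.02.

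**Figure D3:**
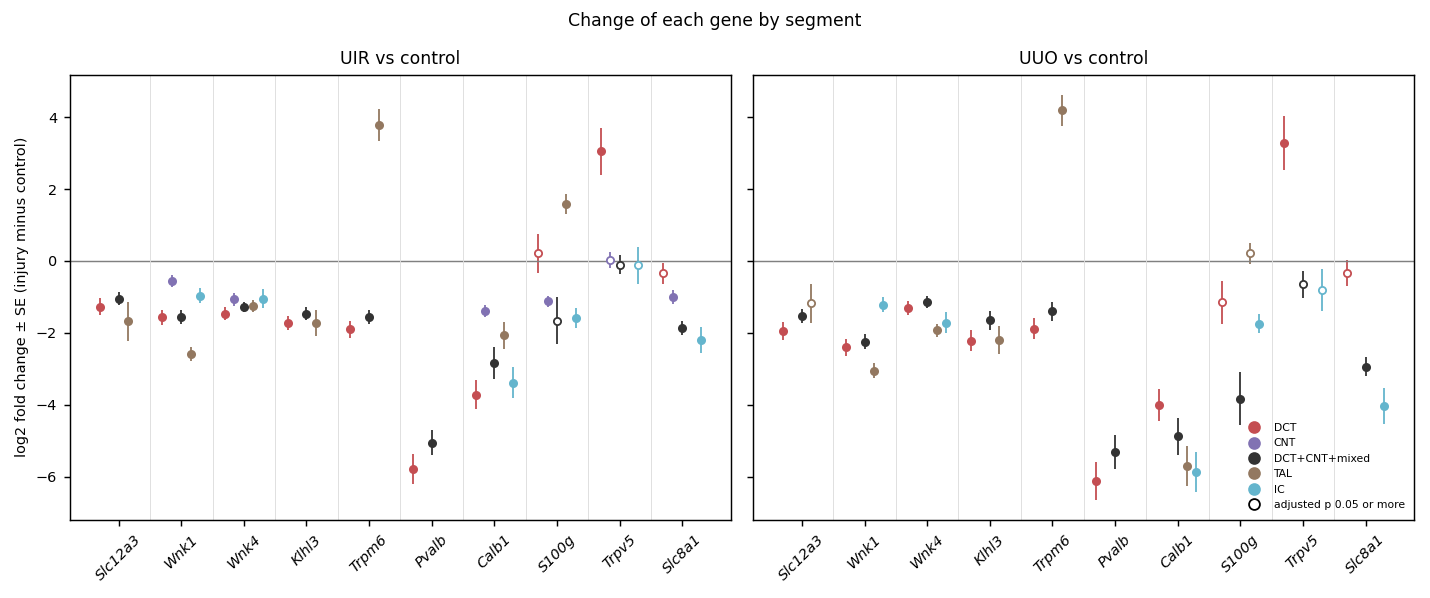
Log2 fold change with its standard error for each gene and segment, UIR against control on the left and UUO against control on the right, with open points where the adjusted p was 0.05 or more. Trpm6 lies below 0 in DCT-like cells and the pooled class and above 0 in TAL-like cells.

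CNT-like cells were tested in UIR only, in 4 control libraries (12 to 27 cells each) and 3 UIR libraries (21 to 54 cells), since the UUO libraries held 1, 1 and 7 such cells. Here too different clusters held most cells of each group: a Pgam2- and Kcne1-led cluster held 80 control and 26 UIR cells, and a Klk1- and Hsd11b2-led cluster 1 and 89. Of 6 genes tested, 5 fell, where 7.39% of 4901 genes changed and 4.12% were lower. The median mitochondrial share was 24.0% in control cells (21.9% to 26.7% over libraries) and 17.5% in UIR cells (15.7% to 18.1%), and its part was not tested. S100g went from 32986, 24606, 25980 and 30914 CPM to 16220, 14446 and 11902 CPM, 2.18-fold lower (-1.12 ± 0.16, adjusted p = 1.82e-06). Calb1 fell from 3710, 4164, 2437 and 2830 CPM to 1498, 1466 and 1087 CPM (-1.40 ± 0.17, adjusted p = 1.89e-07), and Slc8a1 from 277, 370, 358 and 436 CPM to 175, 251 and 141 CPM (-1.01 ± 0.19). The UIR libraries lay below every control library for these 3 genes of calcium transfer and exit. In the cluster that both groups shared, led by Pgam2 and Kcne1, the levels were close: 24 cells of 2 UIR libraries had Calb1 at 4146 ± 671 CPM, S100g at 27920 ± 7061 CPM and Slc8a1 at 337 ± 42.1 CPM, where 72 cells of 4 control libraries had 3356 ± 697, 29157 ± 3630 and 363 ± 65.3 CPM (SD). The 89 UIR cells of the Klk1- and Hsd11b2-led cluster had 598 ± 259, 9855 ± 1281 and 161 ± 62.0 CPM (n = 3), so the lower levels of UIR lay in a cluster with 1 control cell. The entry channel Trpv5 did not pass the test, with 138, 155, 157 and 70.5 CPM in control and 128, 198 and 99.1 CPM in UIR (0.02 ± 0.22, adjusted p = 0.984).

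The kinase genes were also lower in CNT-like cells, Wnk4 by -1.07 ± 0.19 (adjusted p = 9.01e-05) and Wnk1 by -0.56 ± 0.17 (adjusted p = 0.0261), the latter not past the threshold with total-UMI scaling (-0.42 ± 0.17, adjusted p = 0.125). That scaling moved the median gene by 0.13 and the share of changed genes that were lower from 55.8% to 31.7%. Slc12a3, Klhl3, Trpm6 and Pvalb were too low to be tested, at 0.873 to 14.9 CPM on average in control. With the mitochondrial limit at 50%, 2 of 9 genes changed, and the falls of Calb1 and S100g were -0.41 and -0.44.

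The changes in DCT-like and CNT-like cells were compared within the same libraries (4 control and 3 UIR, 7254 genes tested, 13.1% of them with a change that differed). Among the genes with counts in both classes, Calb1, Wnk1 and S100g differed. Calb1 fell by 2.26 ± 0.22 log2 units more in DCT-like than in CNT-like cells (adjusted p = 1.99e-13), and Wnk1 by 0.98 ± 0.16 units more (adjusted p = 4.27e-06). S100g went the other way (1.02 ± 0.32, adjusted p = 0.0189), with the higher change in DCT-like cells. Its change in DCT-like cells did not pass on its own (0.22 ± 0.54) and turned sign in other settings. Most of its control levels there lay in the range of the droplets without cells, so this difference is not read as a result. Slc12a3, Klhl3 and Trpm6 were too low in CNT-like cells to be tested there and entered this comparison through their levels in DCT-like cells, and Trpv5 had 5 UMIs in all control DCT-like cells, so the fitted differences of these 4 genes depend on the prior count and are not read as results. With the mitochondrial limit at 50%, 2 of the 10 genes differed. At that limit Calb1 was not lower in DCT-like cells but was lower in CNT-like cells, as given above. Its larger fall in DCT-like cells thus did not hold there.

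Outside its usual segment, Trpm6 was higher in TAL-like cells of both models than in those of control. The control libraries had 3.52, 0, 2.59, 0 and 4.65 CPM, the UIR libraries 31.1, 45.8 and 47.6 CPM and the UUO libraries 42.2, 56.9 and 67.8 CPM. All 6 injured libraries lay above all 5 control libraries, by 3.78 ± 0.45 log2 units in UIR (13.8-fold, adjusted p = 5.56e-07) and 4.19 ± 0.43 in UUO (18.2-fold, adjusted p = 4.36e-08). Control TAL-like cells held 5 Trpm6 UMIs in 262 cells, and the gene passed the filter on low counts through the injured libraries. The sizes of the rise are over a background base and depend on the prior count, so the fold changes and p-values are not read as results. Droplets without cells held Trpm6 at 1.83 to 9.12 CPM in control, 4.47 to 10.2 in UIR and 8.26 to 16.7 in UUO libraries. The TAL-like levels of the injured libraries lay above these ranges, whereas those of control did not. With this free RNA subtracted the changes were 3.78 and 4.17. The rise passed the threshold in all 29 alternatives in UIR (3.17 to 4.41) and in 28 of 29 in UUO (3.07 to 4.81), where it missed it with a mitochondrial limit of 15% (3.07, adjusted p = 0.0529). Such reruns share the low control counts and are no further support. At 1000 UMIs a cell, a Trpm6 UMI was seen in 0 of 248 control TAL-like cells and in 3.55 ± 1.04% of UIR and 5.53 ± 3.38% of UUO cells (SD over 3 libraries). The 0 allows a share of up to 1.21% with a UMI at that depth, if cells are taken as independent. In macrophages, which should lack it, the shares were 0.220% and 0.0673%. The TAL marker Slc12a1 was seen in 61.7% of UIR TAL-like cells with a Trpm6 UMI (95% exact interval 46.4 to 75.5) and 79.6% without (77.3 to 81.8). Umod was seen in 93.6% and 92.1% of them. In UUO Slc12a1 was seen in 48.6% and 53.9% and Umod in 70.3% and 82.5%. Apart from Slc12a1 in UIR the intervals overlapped, and they cover counting error only. Without thinning, the TAL-like shares were 1.39%, 35.8% and 44.0%, at median depths of 5656, 11910 and 13327 UMIs, beside 0.288% and 0.0997% in UIR and UUO macrophages at medians of 1149 and 1250 UMIs.

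As in the DCT, different clusters held the TAL-like cells. In a cluster led by Egf, which held 256 control, 82 UIR and 7 UUO cells, Trpm6 averaged 0.825 CPM in control and 4.08 CPM in UIR, where its libraries ranged from 0 to 8.26, so most of the Trpm6 UMIs lay in clusters with few or no control cells. In a cluster led by Slc12a1 and Sostdc1 with 5 control, 747 UIR and 269 UUO cells it averaged 33.0 ± 8.98 CPM in UIR and 29.8 ± 9.56 in UUO. In a cluster led by Psca, Mmp7 and Cxcl5 with 0, 255 and 372 cells it averaged 74.8 ± 11.1 and 75.5 ± 18.9 CPM. That last cluster had no TAL marker among its 10 leading genes, and without it Trpm6 still rose by 3.38 ± 0.49 in UIR and 3.31 ± 0.51 in UUO (an alternative chosen after the values were seen). The 6 TAL markers summed to 21193, 13698 and 8477 CPM in control, UIR and UUO, the markers of injured epithelium to 103, 471 and 554 CPM, and the macrophage markers to 2.77, 36.6 and 40.4 CPM. The median mitochondrial share of these cells was 21.6%, 10.2% and 8.44%. Their part in the rise was not tested.

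**Figure D4:**
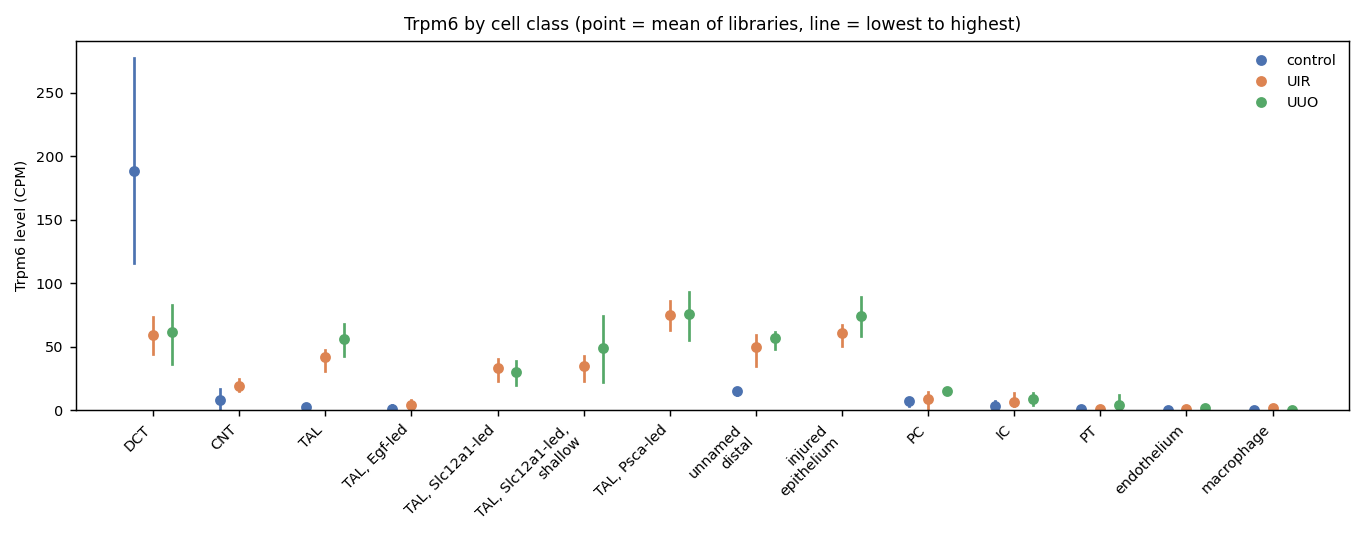
Trpm6 level in CPM by cell class and group, with a point at the mean of the libraries and a line from the lowest to the highest. Control DCT-like cells stand highest at 188 CPM, and in UIR and UUO the Psca-led TAL-like cluster (74.8 and 75.5 CPM) stands above DCT-like cells (59.3 and 61.8 CPM).

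The share of all Trpm6 UMIs in kept cells that lay in DCT-like cells was 63.8% in control, 10.2% in UIR and 3.65% in UUO, and the share in TAL-like cells was 0.804%, 55.9% and 48.5%. These shares follow both the level per cell and the number of cells of each class. Cells named injured epithelium held Trpm6 at 60.8 ± 9.11 CPM in UIR (n = 3).

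The other genes tested in TAL-like cells mostly fell. In UIR all 7 genes tested changed, 5 lower (Slc12a3 and Calb1 among them at background levels, given with their values) and 2 higher, where 30.9% of 11529 genes changed and 14.0% were lower. In UUO 5 of 7 changed, 4 of them lower, where 36.4% changed and 16.5% were lower. Trpm6, counted as higher in both models, passed the filter through the injured libraries, and its test is not read as a result. By total-UMI scaling the median gene moved by 0.23 in both, and the lower share of changed genes from 45.5% to 26.8% in UIR and from 45.4% to 29.3% in UUO, with none of the 7 turning direction. Wnk1 fell from 1081, 593, 833, 668 and 1042 CPM to 120, 193 and 186 CPM in UIR (-2.59 ± 0.20, adjusted p = 7.38e-10) and 95.2, 143 and 125 CPM in UUO (-3.05 ± 0.21, adjusted p = 5.28e-11). Wnk4 changed by -1.25 ± 0.17 and -1.92 ± 0.18, and Klhl3 by -1.72 ± 0.36 and -2.20 ± 0.39, from a control mean of 13.2 CPM. The kinase genes and their adaptor were thus lower in TAL-like as well as in DCT-like cells.

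S100g rose in TAL-like cells of UIR (1.58 ± 0.28, adjusted p = 0.000111) from 169, 51.0, 101, 98.2 and 137 CPM to 436, 503 and 290 CPM, and stood at 181, 221 and 73.9 CPM in UUO (0.22 ± 0.29, not past the threshold). With free RNA subtracted the changes were 3.42 and 2.19, and that in UUO passed (adjusted p = 0.000258). The control level of 111 CPM on average was at background, with 172 CPM in control macrophages and 1413 CPM in the droplets without cells, so the size of the rise is over a background base. Calb1 was low in control (22.9, 23.2, 12.9, 22.4 and 20.9 CPM) and lower in UIR (6.52, 7.78 and 3.02 CPM) and UUO (0.555, 0.360 and 0.339 CPM). In droplets without cells Calb1 fell alongside, from 187 to 754 CPM in control to 132 to 303 in UIR and 5.49 to 94.3 in UUO, and its part in these low counts was not tested. Slc12a3 was at 12.3 CPM on average in control and was lower in UIR (-1.68 ± 0.55, adjusted p = 0.0214). Cells that should lack Slc12a3 held it at a like level and were lower in UIR too, macrophages at 13.5 and 8.54 CPM and endothelium at 11.7 and 8.21 CPM, and the droplets without cells held 86.3 and 61.0 CPM. Calb1 in control macrophages was 51.5 CPM, above its level in TAL-like cells. The lower values of Slc12a3 and Calb1 in TAL-like cells are thus at the background of these libraries and are not read as expression.

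The change of Trpm6 differed between DCT-like and TAL-like cells, by -5.62 ± 0.41 log2 units in UIR (adjusted p = 1.73e-13) and -6.07 ± 0.45 in UUO (adjusted p = 1.88e-13), a test added after the values were seen. Changes differed in 10.4% of 8524 genes in UIR and in 9.89% in UUO. With 5 Trpm6 UMIs in all control TAL-like cells and 2 of the 5 control libraries at 0, the fitted sizes for Trpm6 depend on the prior count. These sizes are not read as results. The difference kept its direction and stayed past the threshold in all 18 alternatives that could be run in UIR (-6.11 to -3.60) and all 15 in UUO (-6.55 to -4.39). Those reruns share the low control counts, and the test was added for directions already seen. They are therefore no further support. Of the other genes, Wnk1 fell less in DCT-like than in TAL-like cells of UIR (1.05 ± 0.19), and Wnk4 fell less in DCT-like cells of UUO (0.59 ± 0.19, adjusted p = 0.0354).

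Intercalated-cell-like pools showed falls in 5 of 6 genes tested in UIR, where 10.2% of 8244 genes changed and 5.46% were lower, and in 5 of 6 in UUO, where 19.2% changed and 10.3% were lower. The median mitochondrial share of these cells was 25.2%, 14.3% and 10.6% in control, UIR and UUO, with library ranges that did not overlap, and its part was not tested. By total-UMI scaling the median moved by 0.26 and 0.32, and the lower share of changed genes from 53.6% to 18.0% and from 53.9% to 20%, and Wnk4 in UIR then missed the threshold (-0.80, adjusted p = 0.0563). Calb1 fell from 600, 1190, 462 and 380 CPM to 62.3, 125 and 25.3 CPM in UIR (-3.38 ± 0.42) and 32.3, 5.86 and 7.47 CPM in UUO (-5.86 ± 0.55), and with free RNA subtracted by -3.53 and -5.85. S100g, Slc8a1, Wnk1 and Wnk4 fell in both models, Slc8a1 by -2.20 ± 0.36 and -4.03 ± 0.49. In principal-cell-like pools 2 of 7 genes changed in UIR, both higher, where 6.20% of 9530 genes changed: Trpv5 (12, 2.23, 13.4, 2.89 and 1.64 CPM in control and 25.0, 27.8 and 15.3 CPM in UIR, a log2 fold change of 1.82 ± 0.48, adjusted p = 0.0216) and Slc8a1 (17.6 to 45.1 CPM on average, 1.09 ± 0.33, adjusted p = 0.0491). Trpv5 had 17 UMIs in all control principal-cell-like cells, and most of its control levels lay in the range of the droplets without cells, 1.07 to 8.39 CPM. It passed the filter on low counts through the injured libraries, so its rise here is not read as a result. Control principal-cell-like cells were split between an Aqp2- and Aqp3-led cluster (111 control and 132 UIR cells) and an Aqp2- and Fxyd4-led one (104 and 13). Trpv5 was 10.1 ± 8.64 CPM in control and 30.9 ± 9.0 CPM in UIR in the first, and 0.647 ± 1.29 CPM in control in the second. That first cluster had a CNT marker score of 0.63 beside a principal-cell score of 0.62, and principal cells were named first. The changes of Trpv5 and Slc8a1 did not pass when each cell was named from the markers of itself and its nearest neighbours (adjusted p = 0.137 and 0.0894). Principal-cell-like cells of UUO came from 1 library with enough cells and are not described further. Proximal-tubule-like pools held no changed gene among 7 tested in UIR by edgeR (1 at an unadjusted p under 0.05), where 13.7% of 11451 genes changed. In UUO 1 of 7 changed, where 4.01% did, and total-UMI scaling moved the median by 0.17 and the lower share of changed genes from 42.0% to 19.0%: Calb1 had 28.2 CPM in control and 0 UMIs in 164 UUO cells, at least 6.51-fold lower with 3 UMIs over the group as the limit. Control macrophages held Calb1 at 51.5 CPM and endothelium at 29.9 CPM, and the droplets without cells went from 338 to 36.4 CPM, so this value too is at background and is not read as expression.

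UUO and UIR were compared directly in the same fits. In DCT-like cells edgeR found none of the 10 genes to differ (3 at an unadjusted p under 0.05, none by DESeq2), where 0.265% of genes did. Wnk1 was -0.83 ± 0.23 (adjusted p = 0.167) and Slc12a3 -0.69 ± 0.26 (adjusted p = 0.503) in UUO relative to UIR. The third UUO library lay nearest to UIR for Slc12a3, Wnk1 and S100g, and without it these 3 genes were lower in UUO, Slc12a3 by -1.24, Wnk1 by -1.31 and S100g by -3.80. Since the library left out is that nearest to UIR, these values show how the test depends on it and are not read as results. In the pooled class none of 10 differed (5 unadjusted), where 0.174% did, and without the third UUO library Wnk1, Calb1 and S100g did, which is not read as a result either. In TAL-like cells 3 of 7 genes were lower in UUO than in UIR, where 2.11% of genes differed: S100g (-1.36 ± 0.28), Wnk4 (-0.66 ± 0.17, adjusted p = 0.0436) and Calb1, whose level there is background and is not read as expression. In intercalated-cell-like pools 1 of 6, Calb1, was lower (-2.48 ± 0.59), where 1.77% differed.

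The share of cells in which a transcript was seen depended on depth. At 1000 UMIs a cell, Slc12a3 was seen in 87.2 ± 2.33% of control DCT-like cells, 74.2 ± 7.62% in UIR and 47.5 ± 10.7% in UUO (SD over 5, 3 and 3 libraries), and Pvalb in 45.5 ± 2.48%, 2.09 ± 2.02% and 1.52 ± 2.62%. In CNT-like cells Calb1 was seen in 83.6 ± 6.45% of control and 38.8 ± 5.87% of UIR cells, and S100g in 97.2 ± 5.56% and 86.7 ± 7.27%. Without thinning, Slc12a3 was seen in 96.3 ± 2.36% of control, 96.9 ± 4.34% of UIR and 83.0 ± 7.43% of UUO DCT-like cells, at median depths of 8732, 11278 and 12236 UMIs, so in UIR the thinned share alone was lower. Pvalb was then seen in 76.3 ± 7.70%, 4.68 ± 2.93% and 3.03 ± 5.25%, and in CNT-like cells Calb1 in 97.0 ± 3.96% and 81.4 ± 4.99% and S100g in 99.1 ± 1.85% and 97.0 ± 1.53% of control and UIR cells. By exact permutation tests over libraries, two-sided, 9 of 40 such comparisons had an unadjusted p under 0.05 and none passed after adjustment (smallest adjusted p = 0.159). The smallest p that 5 against 3 libraries allow is 0.0357, with 0.0571 for 4 against 3 and 0.100 for 3 against 3. No outcome could thus have passed after adjustment, and the adjusted result decides nothing on these shares.

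DCT-like cells made up 13.2 ± 3.07% of tubular cells outside the proximal tubule in control, 5.09 ± 2.52% in UIR and 2.74 ± 0.615% in UUO, and the pooled distal class 23.4 ± 1.35%, 7.91 ± 4.0% and 3.19 ± 1.18%. Cells of the distal clusters that met no naming rule made up 4.85 ± 1.95%, 5.73 ± 2.59% and 14.9 ± 1.46%. The lower shares of both classes, and the higher share of unnamed cells in UUO, had the smallest exact permutation p of 0.0357, and none of 27 shares passed after adjustment (adjusted p = 0.0689, with 14 unadjusted under 0.05). With so few libraries no outcome could have passed after adjustment, so the adjusted result decides nothing here. Shares of cells in suspension also follow how each cell type survives dissociation and the mitochondrial limit.

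**Figure D5:**
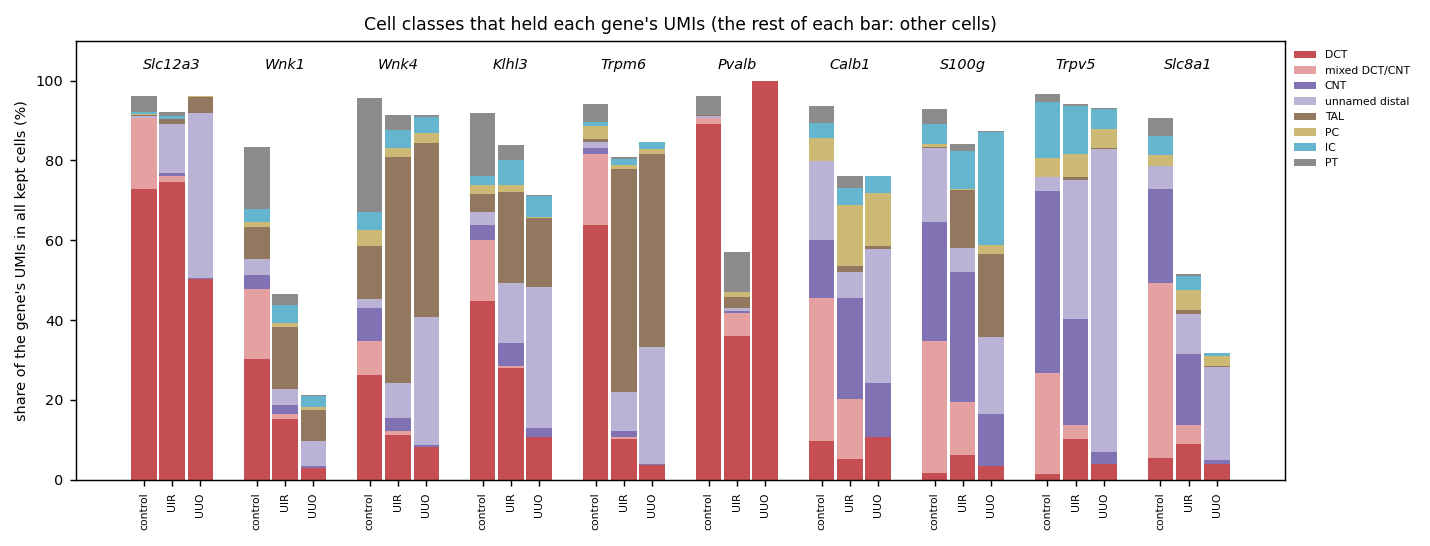
Share of each gene's UMIs by cell class in each group, in percent of its UMIs in all kept cells, with other cells making up the rest of each bar. The largest share of Trpm6 lies in DCT-like cells in control (63.8%) and in TAL-like cells in UIR and UUO (55.9% and 48.5%), and that of Trpv5 in UUO in unnamed distal cells (75.7%).

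Different clusters made up the unnamed distal cells. Those of control lay almost all in a cluster of shallow cells led by Pgam2 and Klk1 (71 control, 20 UIR and 2 UUO cells, median 3136 UMIs), with S100g at 65878 ± 22026 CPM in control, and those of the injured kidneys mostly in other clusters, so their shares are set side by side with no comparison. The unnamed cells held 3.38% of the 355 Trpv5 UMIs in control, 34.7% of 819 in UIR and 75.7% of 695 in UUO. Of the other calcium genes they held 19.8%, 6.50% and 33.6% of Calb1 UMIs, 18.7%, 6.13% and 19.3% of S100g UMIs and 5.70%, 9.93% and 23.2% of Slc8a1 UMIs in control, UIR and UUO. A cluster led by Spink8, Plet1 and Stc1 had Trpv5 at 121 ± 25.4 CPM in UIR and 113 ± 31.2 CPM in UUO (n = 3 each), near the 130 CPM of control CNT-like cells, but S100g at 1111 and 543 CPM against 28621 CPM there. A Sprr2f-led cluster had Trpv5 at 94.1 ± 17.4 CPM in UUO, with Slc12a3 and Pvalb at 0. With no segment of the controls to set them against, these cells are described and not tested. Their names could not be given by the markers fixed, and 41.3% of the Slc12a3 UMIs of UUO kidneys lay in them.

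Among 5693 genes compared over 17 means of a segment in a group, Trpm7, a close relative of Trpm6, was the most like Slc12a3 (Pearson r = 0.90 on log2(CPM + 1)), followed by Pvalb (0.84) and Psmd3 (0.83). The genes most like Pvalb were Gm17767 (0.94), Lrrc52 (0.94) and Trpm7 (0.93), and those most like Trpv5 were A930017K11Rik (0.90), A4galt (0.90) and Cav1 (0.89). The 17 points share libraries and clusters, and these are descriptions.

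The other genes of the same pathways were read from fixed lists. Of 12 listed genes of magnesium handling 7 were tested in DCT-like cells, and 5 fell and 1 rose in both models, where 18.3% and 16.7% of all genes tested were lower and 35.1% and 32.9% changed. Of 8 tested in the pooled class, 5 fell in each model and none rose, where 14.1% and 12.6% of all genes of that class were lower. Egf, the growth factor that raises Trpm6 activity, changed by -5.21 ± 0.30 in UIR and -6.16 ± 0.35 in UUO, from 2270 CPM in control to 73.9 and 39.3. It was among the 10 leading genes of the DCT-like cluster with 150 control, 19 UIR and 6 UUO cells. All pathway values in DCT-like cells come from pools whose groups lay in different clusters, as given above, and the part of this was not tested. The magnesium transport protein Cnnm2 changed by -1.79 and -2.44, Trpm7 by -1.25 and -1.30, the sodium pump subunit Fxyd2 by -1.09 and -1.89 and the transcription cofactor Pcbd1 by -1.70 and -1.77, while the magnesium transporter Slc41a1 rose by 0.91 and 0.97. In CNT-like cells Fxyd2 rose in UIR (1.40 ± 0.29), the only 1 of 5 magnesium genes tested there to change, where 7.39% of all genes did and 3.26% were higher.

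Of 18 listed genes of salt transport 15 were tested in DCT-like cells. In UIR 4 fell and 3 rose, and in UUO 5 fell and 1 rose, so 7 and 6 of 15 changed where 35.1% and 32.9% of all genes tested did. Of 16 tested in the pooled class, 6 fell in each model and none rose, where 14.1% and 12.6% of all genes were lower. The phosphatase inhibitor Ppp1r1a fell the most (-2.20 ± 0.19 and -2.77 ± 0.21), the kinase Stk39, through which Wnk kinases act on Slc12a3, changed by -0.73 ± 0.17 in UIR, and the potassium channel Kcnj10 by -0.91 ± 0.22 in UUO. Ppp1r1a, like Egf, was a leading gene of the DCT-like cluster that held mostly control cells. In CNT-like cells 2 of 15 fell in UIR, where 4.12% of 4901 genes did: the aldosterone-induced kinase Sgk1 by -3.08 ± 0.28 and Kcnj10 by -0.64 ± 0.17.

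Of 16 listed genes of calcium handling 8 were tested in DCT-like cells, and 3 rose and 2 fell in UIR and 2 rose and 2 fell in UUO, where 35.1% and 32.9% of all genes tested changed. Of 10 tested in the pooled class, 3 rose and 3 fell in UIR, and 3 rose and 4 fell in UUO, where 26.7% and 24.5% of all genes of that class changed. The vitamin D receptor Vdr changed by -0.95 and -1.63 and the antiaging protein klotho (Kl), a cofactor of the FGF23 receptor, by -2.53 and -2.40. The parathyroid hormone receptor Pth1r rose by 1.71 ± 0.18 and 1.39 ± 0.19, from 116 to 457 and 368 CPM, and S100a10, which helps bring Trpv5 to the membrane, by 1.09 and 0.78. CNT-like cells of UIR showed the same directions for these genes, with Kl at -1.29, Vdr at -0.89, Pth1r at 1.94 and S100a10 at 1.65, and the calcium pump Atp2b2 changed there by -1.49 ± 0.26. All values named here passed an adjusted p of 0.05 by edgeR.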

How the data were processed

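Single-cell RNA of 5 control, 3 UIR and 3 UUO kidney libraries was used. The authors deposited UMI counts of all barcodes for 28692 genes, made with Cell Ranger 3.1.0 on mm10 per the file headers and the submitters' processing notes, while the study's methods name a later release. The deposited counts hold no correction for free RNA or doublets.

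Barcodes were called as cells by a UMI cutoff and by a profile test against droplets without cells (10000 simulations, adjusted p 0.01, at least 500 UMIs). Cells over 30% mitochondrial or 5% hemoglobin UMIs or under 200 genes were removed, as was the top 7.5% by doublet score in each library (3291 cells). Clustering (leidenalg 0.10.2, resolution 1, 2000 variable genes) left out the 10 genes and their pathway. Distal clusters were named from fixed markers (score of at least 0.5, with principal cells named first and a ratio of 1.3 between the DCT and CNT scores, in cells of at least 2000 UMIs; a principal-cell-like cluster had a CNT score of 0.63 beside its own 0.62) by a rule set after the marker tables were seen. Counts were summed per library and segment (at least 10 cells) and tested with edgeR 4.0.16 (quasi-likelihood, TMM, R 4.3.3), with p-values adjusted by Benjamini-Hochberg over all genes. DESeq2 1.42.0 was an alternative. CPM is the share of a pool's UMIs scaled to 1e6, and SE is the fold change over the root of F. Shares were thinned to 1000 UMIs a cell and tested by exact permutation. Intervals cover counting error only.

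The tests were tried on simulated data. The genes and lists were chosen with earlier results of these data known, and all 10 genes are named. Pools held 213100 to 1353667 UMIs in DCT-like cells. The numbers in the UIR and UUO labels were checked for pairing, and no fit treats them as pairs except as an alternative. The values of 1 listed gene and 1 cell cluster are not reported here.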

Additional observations from a re-analysis of the deposited data

Results flagged for a closer look

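Of 28 groups of libraries tested for a value far from the others, 4 held one, where chance gives about 1 in 20. Klhl3 in DCT-like cells was 148 CPM in the control library AN2 and 103 to 116 CPM in the other 4. Calb1 in TAL-like cells was 12.9 CPM in the control library N2 and 20.9 to 23.2 CPM in the other 4. In CNT-like cells of the control library Ctrl, Slc12a3 was 17.5 CPM and Pvalb 3.49 CPM, and both were at 0 in the other 3 libraries with at least 10 cells. Where all others are at 0, any UMI gives a flag, so the rate of 1 in 20 does not apply. Pvalb at 3.49 CPM was 2 UMIs. The library N1, with 8 cells and not used, held Slc12a3 at 10.1 CPM.

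The change in UIR differed between DCT-like and CNT-like cells by a test of the difference for Slc12a3 (-3.63 log2 units), Wnk1 (-0.98), Klhl3 (-1.91), Trpm6 (-2.98), Calb1 (-2.26), S100g (1.02) and Trpv5 (2.83). Slc12a3, Klhl3 and Trpm6 were too low in CNT-like cells to be tested there and entered through their levels in DCT-like cells, and Trpv5 had 5 UMIs in control DCT-like cells, so the sizes of these 4 depend on the prior count and are not read as results. The S100g difference is not read either, since its change in DCT-like cells did not pass on its own and turned sign in other settings. Between DCT-like and TAL-like cells it differed in UIR for Wnk1 (1.05), Trpm6 (-5.62) and Calb1 (-1.77), and in UUO for Wnk4 (0.59) and Trpm6 (-6.07). Calb1 in TAL-like cells is at background and its difference is not read as a result. Trpm6 had 5 UMIs in control TAL-like cells, so the sizes of its differences depend on the prior count and are not read either. The causes of these differences were not tested.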

How the results depend on the processing

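The number of the 10 genes that changed in DCT-like cells of UIR (8) was 2 with a mitochondrial limit of 50%, 3 with predicted doublets kept and 2 with cells of at least 1000 UMIs (the last 2 with 1 usable UIR library), and 8 without any 1 library. In UUO it was 8, then 5 at a Leiden resolution of 2 with 1 usable UUO library, and 8 to 9 without any 1 library. Trpv5, which is not read as a result, is 1 of the 8 in both models. In CNT-like cells the number (5) was 2 at the 50% limit. In the pooled class of UUO (9) it was 5 with at least 1000 UMIs, with 1 usable UUO library. In the TAL-, principal-, intercalated- and proximal-tubule-like classes together, 14 calls in UIR became 4 at a 15% limit and 9 with the AN controls only, and 12 in UUO became 4 at that limit and 19 without a filter on low counts (1 of the 12 is Calb1 in principal-cell-like cells of 1 UUO library). The calls of UIR in these classes include Trpm6 in TAL-like and Trpv5 in principal-cell-like cells, and those of UUO include Trpm6. Neither test is read as a result. UUO against UIR gave 0 in DCT-like cells, then 2 without the filter and 0 to 3 without 1 library, with 3 when UUO replicate 3 was left out. In the pooled class it gave 0, then 2 (each cell named on its own, by its markers and those of its nearest neighbours, the 15% limit, or resolution 2), 6 at the 50% limit, 4 without the filter and 0 to 3 without 1 library (3 without UUO replicate 3, 2 without UIR replicate 3). In the other classes it gave 5 (1 of them in principal-cell-like cells of 1 UUO library), then 2 (15% limit, resolution 2, free RNA subtracted), 3 (doublets kept, 1000 UMIs, DESeq2), 10 without the filter, 8 with the AN controls only and 2 to 6 without 1 library (2 without UUO replicate 2, 3 without UUO replicate 3 or UIR replicate 2). The 7 differences between DCT-like and CNT-like cells, 4 of them in genes too low in 1 of the classes to be read and that of S100g not read either, became 2 at the 50% limit. With doublets kept, and with 1000 UMIs, 1 usable UIR library of DCT-like cells was left, so those settings decide nothing.

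With the replicate block, pairing UIR and UUO libraries of the same number in a fit of those 6, the other classes gave 9 of 16 tested (6 without the block), and DCT-like cells and the pooled class 0 of 9 and 0 of 10 (0 without it). Deviations of same-numbered libraries correlated at 0.18, 0.04 and -0.04 in DCT-like, 0.39, 0.07 and 0.06 in TAL-like and 0.24, 0.18 and -0.04 in intercalated-cell-like cells, so the numbers were not taken as pairs.

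Values that turned sign, in log2 units, were these. In DCT-like cells of UIR, Slc12a3 (0.11), Wnk4 (0.10) and Calb1 (0.18) did so at the 50% limit. S100g turned to -3.76 with each cell named on its own, -6.58 at the 15% limit, -2.24 with doublets kept, -5.03 with 1000 UMIs, -0.50 without UIR replicate 2 and -0.06 without the AN set. Trpv5 turned to -0.20 with each cell named on its own. Slc8a1 turned to 0.15 with doublets kept, 0.30 at resolution 2, 0.23 without control replicate 1 (the set Ctrl), 0.09 with the N set only and 0.31 with the AN set only. In UUO S100g turned to 2.43 and Slc8a1 to 0.57 at resolution 2 (1 UUO library), and Slc8a1 to 0.24 without control replicate 1, 0.09 with the N set only and 0.31 with the AN set only. In CNT-like cells Trpv5 turned to -0.06 with each cell named on its own, -0.05 at resolution 2, -0.07 with at least 20 cells a pool, -0.18 without control replicate 5, -0.29 without UIR replicate 2, -0.28 with the N set only and -0.14 without the AN set. In the pooled class of UIR Trpv5 turned to 0.04 with each cell named on its own, 0.16 and 1.32 at the 50% and 15% limits, 0.28 with 1000 UMIs, 0.39 at resolution 2, 0.18 by total-UMI scaling, 0.03 without control replicate 1, 0.13 without UIR replicate 3 and 0.17 with the AN set only, and in UUO to 1.62 at the 15% limit, 0.87 with 1000 UMIs and 0.18 at resolution 2. In TAL-like cells of UUO Slc12a3 turned to 0.47 with doublets kept, and S100g to -0.05 at the 50% limit and -0.07 without UUO replicate 2. Without any 1 library S100g in DCT-like cells of UIR ranged from -0.50 to 0.75, Slc8a1 there and in UUO from -0.54 to 0.23 and from -0.54 to 0.24, and Trpv5 in the pooled class of UIR from -0.32 to 0.13. The cause was not tested. Where a group is left with 1 library, that library is assumed to vary like the others, and the value decides nothing.

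Of 277 alternative values in DCT-like cells of UIR, 244 kept their direction and side of the threshold, as did 229 of 249 in UUO, 142 of 162 in CNT-like cells, 261 and 271 of 280 in the pooled class and 187 and 187 of 200 in TAL-like cells. No value for CNT-like cells of UUO was obtained, some settings left fewer than 2 UIR or UUO libraries with 10 DCT-like cells, and shares of cells were not rerun without each library. Total-UMI scaling, the pooled class and the tests between DCT-like and TAL-like cells were chosen after seeing the data. DCT-like pools of 21 to 99 cells limit what can be seen of low genes such as Trpv5.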
